A study of Mus musculus with 53 samples.

Results

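The regions described here were 2162 enhancers of embryonic stem cells grown in NACL that overlapped no enhancer of 2iLIF culture and none of naive endoderm (nEnd). They were 13.9% of the 15586 enhancers of NACL, and are called NACL-only enhancers. They were chosen by measured values, namely the H3K27ac and H3K4me1 peaks of 12 CUT&RUN libraries. An enhancer of a medium was an H3K27ac region with peaks of both its libraries that overlapped an H3K4me1 region with peaks of both its libraries. The same rule gave 27880 enhancers in 2iLIF and 7636 in nEnd. Of the 2924 NACL enhancers without a 2iLIF counterpart, 762 overlapped an nEnd enhancer and were left out. As points of comparison served 12308 2iLIF-only enhancers, defined in the same way against NACL and nEnd, and 8521 NACL enhancers that were also enhancers of 2iLIF but not of nEnd, called shared enhancers.

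CUT&RUN cuts chromatin around an antibody-bound protein or histone mark and sequences the released fragments. All cells came from SGGC mouse embryonic stem cells (E14JU), a double reporter line in which endogenous SOX2 is fused to GFP and endogenous GATA6 to mCherry, so the groups compared all carry both fusions. NACL supplies Activin A, the GSK3 inhibitor CHIR99021 and LIF in an N2B27 base, while 2iLIF supplies LIF, CHIR99021 and the MEK inhibitor PD0325901. The nEnd cells, naive extra-embryonic endoderm stem cells derived from the line, were kept in the NACL cytokines with another base medium. The SOX2+ and double-positive (DP) cells were sorted by reporter from KOSR, a knockout serum replacement medium. In 2iLIF and NACL, each of H3K27ac, H3K4me1 and SOX2 had 1 library of clone B9 and 1 of clone B12. In nEnd, H3K27ac and GATA6 came from both clones and both H3K4me1 libraries from B9. All KOSR libraries were of clone B12, from experiments labelled A, A1 and B, with 3 SOX2 libraries of SOX2+ cells, 3 SOX2 and 3 GATA6 libraries of DP cells, 2 libraries of each mark in SOX2+ cells and 1 of each in DP cells. Clones B9 and B12 are separate lines, but nothing in the labels ties the libraries of 1 clone and group to separate cultures, so the p-values given here measure the spread between these libraries, which may in part be technical.

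H3K4me1 marks primed and active enhancers, and H3K27ac is added where an enhancer is active. SOX2 is a core pluripotency factor of the epiblast, and GATA6 drives primitive endoderm. The MEK inhibitor of 2iLIF blocks the ERK pathway, which in embryonic stem cells switches on feedback inhibitors of the Sprouty, Spred and dual-specificity phosphatase families and moves cells from the naive towards the formative state. Activin A acts through Nodal receptors and SMAD proteins.

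To show what these regions look like, 300 bases of GRCm38 (RefSeq, plus strand, 5′ to 3′) are given around the SOX2 maximum of 4 of the 5 NACL-only enhancers with the highest mean SOX2 rank among those with a SOX2 peak in both NACL libraries and in no 2iLIF library. Capitals mark matches to any of 15 short motif strings that were searched on both strands.
Ppp1r9a region, chr6:4892187-4892486: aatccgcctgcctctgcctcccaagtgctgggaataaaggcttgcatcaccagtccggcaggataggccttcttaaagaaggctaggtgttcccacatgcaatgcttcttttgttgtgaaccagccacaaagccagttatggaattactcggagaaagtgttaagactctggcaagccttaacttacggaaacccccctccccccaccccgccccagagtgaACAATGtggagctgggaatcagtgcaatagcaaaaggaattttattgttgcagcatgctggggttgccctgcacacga
Irx5 region, chr8:92134145-92134444: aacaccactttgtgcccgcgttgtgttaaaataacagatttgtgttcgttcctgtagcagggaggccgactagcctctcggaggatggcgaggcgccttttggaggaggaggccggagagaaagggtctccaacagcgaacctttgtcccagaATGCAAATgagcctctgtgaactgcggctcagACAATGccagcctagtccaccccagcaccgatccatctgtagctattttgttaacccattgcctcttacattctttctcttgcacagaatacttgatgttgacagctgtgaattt
Sox11 region, chr12:27320767-27321066: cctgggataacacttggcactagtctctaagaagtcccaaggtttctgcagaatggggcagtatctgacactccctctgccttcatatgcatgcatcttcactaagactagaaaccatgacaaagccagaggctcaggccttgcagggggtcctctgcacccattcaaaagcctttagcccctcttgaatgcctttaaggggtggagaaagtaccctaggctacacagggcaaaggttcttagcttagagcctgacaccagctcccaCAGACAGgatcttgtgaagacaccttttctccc
Myrf region, chr19:10231911-10232210: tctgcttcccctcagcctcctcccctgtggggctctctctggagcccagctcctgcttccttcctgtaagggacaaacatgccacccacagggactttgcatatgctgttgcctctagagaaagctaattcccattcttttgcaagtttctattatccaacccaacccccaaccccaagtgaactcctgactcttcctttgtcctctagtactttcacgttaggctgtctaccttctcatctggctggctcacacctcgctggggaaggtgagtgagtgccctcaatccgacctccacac

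The region 10.8 kb upstream of Ppp1r9a, which encodes the actin-binding protein neurabin, had a SOX2 peak at percentile 90.1 of the peaks of the NACL B9 library and at 93.1 in B12. In SOX2+ cells the percentiles were 85.4, 93.9 and 77.8 in experiments A, A1 and B, and 1 of 3 DP libraries had a peak, at 82.4. Its window held 1 match, to the SOX string CATTGT on the minus strand. The region 223 kb upstream of Irx5, an Iroquois homeobox gene, had SOX2 at percentiles 91.5 and 84.5 in NACL and at 92.6, 91.8 and 82.2 in SOX2+ cells, and no DP library had a peak there. Its window held the octamer string ATGCAAAT and a SOX string. The region nearest to Sox11, a SoxC transcription factor gene, lay 21.6 kb from the start site, had SOX2 percentiles of 86.2 and 84.9 in NACL and held the SMAD string CAGACAG in its window. The Myrf region, in an intron of this myelin regulatory factor gene, had SOX2 at 86.9 and 83.4 in NACL and a window without any of the 15 strings. All 4 regions had SOX2 peaks in each of the 3 SOX2+ libraries. Of all 182 NACL-only enhancers with SOX2 in both NACL and no 2iLIF library, 81 (44.5%) had it in at least 2 SOX2+ libraries, so these top-ranked regions do not stand for the rest.

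The word absent describes the rule better than it describes the chromatin. Most NACL-only enhancers carried H3K27ac in 2iLIF: 1317 of 2162 (60.9%) had a peak in both 2iLIF libraries, 632 (29.2%) in 1 of them and 213 (9.85%) in neither. Per library the shares were 71.8% and 79.3%, against 94.9% and 96.4% of all NACL enhancers, and these 2iLIF H3K27ac lists covered 359 and 588 Mb. A region counts as carrying a mark where any base overlaps, so the peaks of the 2 clones in a region need not meet. What most lacked was H3K4me1 in the 2iLIF B9 library. A peak of H3K4me1 was found at 28.5% of them in 2iLIF B9 and at 81.0% in 2iLIF B12, and 1195 (55.3%) had it in B12 alone. The most frequent combination, H3K27ac in both clones with H3K4me1 in B12 only, held 932 regions (43.1%). Only 44 had no peak of either mark in any 2iLIF library, and 32 had none in any 2iLIF or nEnd library. The 2iLIF H3K4me1 lists differed in size, with 33252 peaks over 88.9 Mb in B9 and 52599 peaks over 206 Mb in B12, and the part of list size in the absence of B9 peaks was not tested. The 89 regions with a peak in all 4 2iLIF libraries still overlapped no H3K27ac region of both libraries that met such an H3K4me1 region. Which of these steps failed in each was not examined. Without the 2iLIF B9 libraries, so that 2iLIF B12 alone decided, 876 NACL enhancers were left. Without the NACL B9 libraries there were 5236 and without NACL B12 6280.

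**Figure D1:**
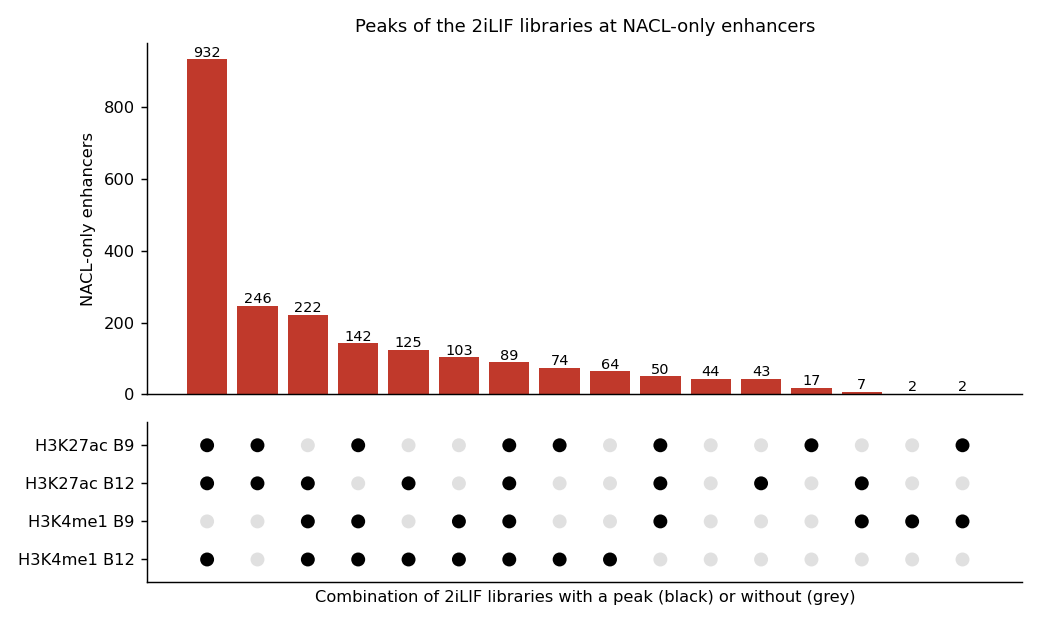
Number of NACL-only enhancers (y axis) for each combination of 2iLIF libraries with a peak, marked by black dots below each bar. The highest bar, 932 regions, has H3K27ac in both clones and H3K4me1 in B12 but not in B9, and 44 regions have no peak in any of the 4 libraries.

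With a 2iLIF or nEnd enhancer allowed to take each mark from either library, 442 of the 2162 (20.4%) remained, and 532 (24.6%) when only 2iLIF was relaxed in this way. On the other side of the rule, 43 of the 13424 NACL enhancers left out overlapped a 2iLIF or nEnd enhancer by under 10% of their width, and 21 by under 100 bp. The H3K27ac lists were long in both media, with 224091 and 210904 peaks in NACL and 232779 and 401853 in 2iLIF, against 30698 and 24700 H3K4me1 peaks in NACL. Among 27968 merged NACL and 2iLIF enhancers ranked by their maximum signal within a library, the median NACL-only enhancer stood at percentile 57.7 (B9) and 58.6 (B12) for H3K4me1 in NACL and at 8.46 and 19.6 in 2iLIF. For H3K27ac it stood at 37.8 and 36.5 in NACL and at 16.1 and 24.4 in 2iLIF. Equal signals, which were common, shared a rank, and 8.46 is the rank of all regions without an H3K4me1 peak in 2iLIF B9. These values come from the marks that chose the regions and are given without a test.

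**Figure D2:**
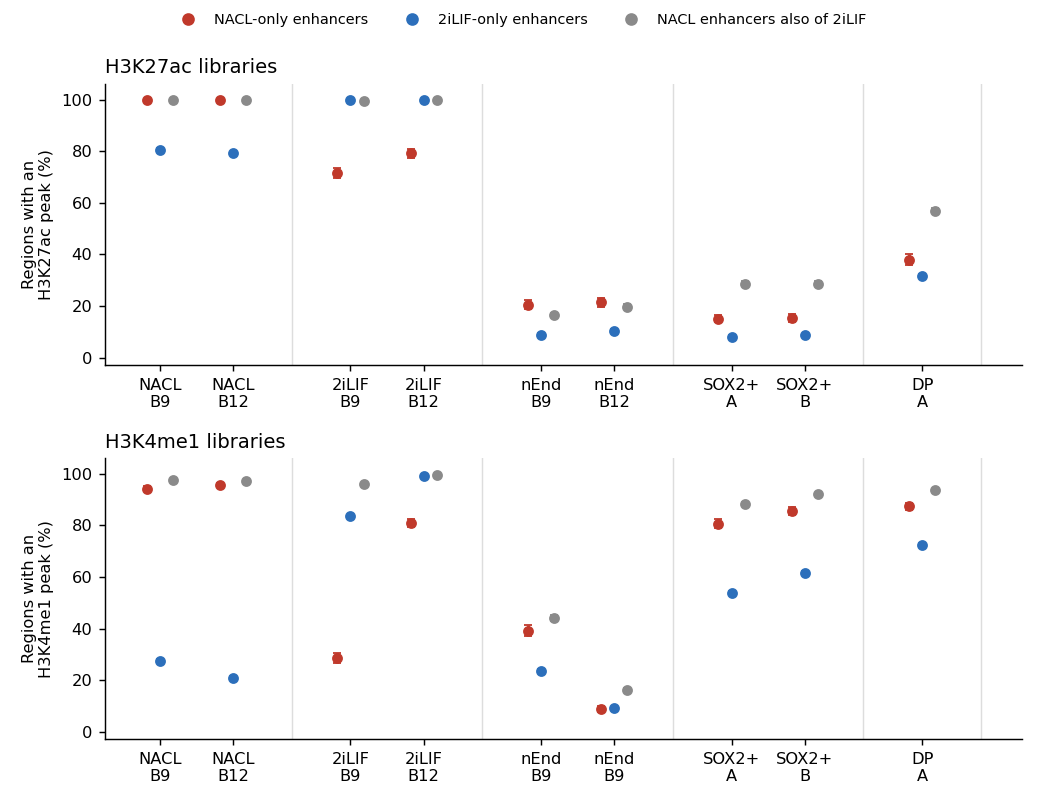
Percentage of NACL-only, 2iLIF-only and shared enhancers (also of 2iLIF) with a peak in each histone library, labelled by group and by clone or experiment, with 95% Clopper-Pearson intervals. In 2iLIF, 71.8% and 79.3% of NACL-only enhancers carry H3K27ac, and H3K4me1 is at 81.0% in B12 and 28.5% in B9.

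NACL-only enhancers lay about as far from genes as NACL enhancers overall. Their strongest H3K27ac maximum was a median 11.8 kb from the nearest protein-coding start site, against 11.3 kb for all NACL, 23.2 kb for 2iLIF-only and 15.5 kb for shared enhancers. Of the 2162, 1519 (70.3%, 95% Clopper-Pearson interval 68.3 to 72.2) were at least 1 kb from any annotated start site, against 64.4% (63.6 to 65.1) of all NACL, 82.3% (81.7 to 83.0) of 2iLIF-only and 71.8% of shared enhancers. The maximum was intronic in 56.4%, intergenic in 33.1% and exonic in 10.5%. Median widths were 2644 bp for NACL-only, 2602 bp for 2iLIF-only, 4327 bp for shared and 4566 bp for all NACL enhancers. A wider region can overlap more peaks. The part of width in shares set against shared or all NACL enhancers was not tested. On the X chromosome lay 13 NACL-only enhancers (0.601%), close to the 0.584% of all NACL enhancers, against 2.84% of 2iLIF-only enhancers. Within 50 kb of another NACL-only enhancer were 824 (38.1%). These differences in position are described without a test.

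The gene with the most NACL-only enhancers as its nearest was Zfp423 (ENSMUSG00000045333), a zinc-finger transcription factor gene on chromosome 8. Its 13 regions spanned 334 kb, with 9 inside the gene itself. No 2iLIF-only and 2 shared enhancers were nearest to it, and 8 of the 13 overlapped no 2iLIF region of both marks even in the relaxed reading, where 24.6% of all NACL-only enhancers did not. Their H3K4me1 in NACL B12 reached percentile 98.9, and 9 of 13 carried H3K4me1 in both SOX2+ libraries, where 77.8% of all NACL-only and 86.4% of all NACL enhancers did. SOX2 was in both NACL libraries at 1 of the 13, where 16.7% of all NACL-only and 29.4% of all NACL enhancers had it, and none was a SOX2+ enhancer, where 8.97% and 24% were.

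Sox4, a SoxC transcription factor gene, followed with 9 regions over 232 kb of chromosome 13, most of them in introns of the noncoding gene 2610307P16Rik. Sox4 also had 6 2iLIF-only and 5 shared enhancers, and 8 of its 9 NACL-only enhancers had H3K4me1 in both SOX2+ libraries, against the same 77.8% and 86.4%. None of the 9 had SOX2 in both NACL libraries. Next came Ppp1r9a and Adgrl2, a latrophilin adhesion receptor gene, with 7 each. SOX2 was in both NACL libraries at 16.7% of all NACL-only and 29.4% of all NACL enhancers, and in both 2iLIF libraries at 5.27% and 17.5%. Of the 7 Adgrl2 regions 4 had SOX2 in both NACL and 2 in both 2iLIF libraries. Of the 7 Ppp1r9a regions 2 had SOX2 in both NACL and none in both 2iLIF libraries. The chromatin remodeller gene Chd7 had 6 regions, of which 3 had SOX2 in both NACL and none in both 2iLIF libraries. Mgat5b, a glycosyltransferase gene, Ergic1, a gene of ER to Golgi transport, Gse1 and the scaffold gene Magi1 had 6 each, and Lrrc8d, an anion channel subunit gene, and Egln3, a HIF prolyl hydroxylase gene, had 5 each. Magi1 differed from Zfp423 in that 22 2iLIF-only and 21 shared enhancers were nearest to it as well, while Ergic1 had no 2iLIF-only enhancer.

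Spry4, a Sprouty feedback inhibitor of receptor tyrosine kinase signalling to ERK, had 6 NACL-only enhancers within 48.6 kb of chromosome 18 (38559355 to 38607944), 5 shared and no 2iLIF-only enhancers. The widest (38592669 to 38601332) covered the first part of the gene. Its H3K27ac percentile was 84.8 in NACL B9 and 97.6 in NACL B12, and 63.2 and 59.2 in 2iLIF B9 and B12. Its H3K4me1 percentile was 99.5 and 99.7 in NACL and 70.6 and 66.6 in 2iLIF. The regions 31.1 kb and 25 kb from the start site had no H3K27ac peak in 2iLIF B9 and percentiles of 66.3 and 38.6 in 2iLIF B12. In NACL their H3K27ac stood at 75.6 and 23.1 in B9 and at 87.5 and 87.9 in B12. The region at 25 kb had a SOX2 peak in all 3 SOX2+ libraries (68.8, 84.4 and 49.3), 1 in DP A1 (27.4), a weak one in NACL B9 (1.23) and none in NACL B12 or 2iLIF. A region 5.68 kb from the start site had no peak of either mark in 2iLIF. All 6 overlapped H3K4me1 in both SOX2+ libraries, some of them only in part, at percentiles up to 99.8, where 77.8% of all NACL-only and 86.4% of all NACL enhancers did.

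**Figure D3:**
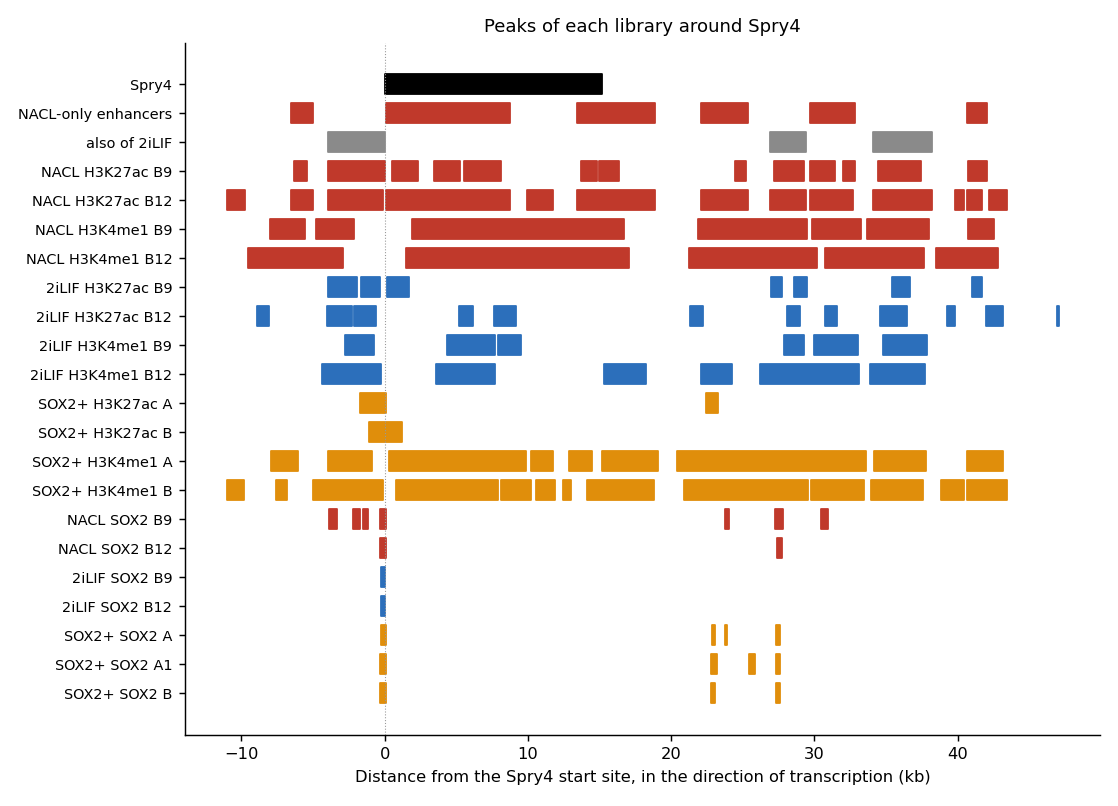
Peaks of each library around Spry4, against the distance from its start site in kb. The 6 NACL-only enhancers lie beside shared enhancers, with 13 H3K27ac peaks in each NACL library against 7 and 12 in 2iLIF B9 and B12, and 7 and 5 H3K4me1 peaks in NACL against 6 in each 2iLIF library. SOX2+ H3K4me1 overlaps all 6, some of them only in part.

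Gene lists of signalling pathways and cell states were read by nearest gene. Over all 21911 protein-coding genes, 7.53% were nearest gene of a NACL-only enhancer, 24.9% of a 2iLIF-only and 19.5% of a shared enhancer. Of 20 ERK response genes, 9 had a NACL-only enhancer, with 18 regions in all, 9 had a 2iLIF-only enhancer, with 32 regions, and 13 had a shared enhancer, with 46 regions. The feedback inhibitors were divided. Spry4 (6 regions), Spred1 (2), Dusp4 (1) and Dusp5 (1) had NACL-only and no 2iLIF-only enhancers, and so did Phlda1 and Epha2 with 1 each. Dusp6, Spry1, Etv1, Etv5, Ccnd1 and Fos had 2iLIF-only enhancers and no NACL-only ones. Both kinds were found at Spry2 (1 NACL-only and 3 2iLIF-only), Spred2 (1 and 6) and Myc (4 of each). A Spred1 region of 20697 bp in the gene's intron (chr2:117130376-117151072) had H3K27ac at percentiles 97.5 and 97.8 in NACL and 90.0 and 95.5 in 2iLIF, where it lacked only H3K4me1 in B9. The Dusp5 region 28 kb from the start site had H3K27ac at 93.3 and 96.6 in NACL and 68.7 and 83.7 in 2iLIF. Of the 18 regions, 15 had H3K4me1 in both SOX2+ libraries, 2 had H3K27ac in both, and 1 had SOX2 in both NACL libraries, where 77.8%, 10.7% and 16.7% of all NACL-only and 86.4%, 26.1% and 29.4% of all NACL enhancers did.

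Of 15 formative epiblast genes, 7 had a NACL-only enhancer (19 regions), 4 a 2iLIF-only enhancer (13 regions) and 6 a shared enhancer (17 regions). The regions were nearest to Sox4 (9), Foxd3 (3), the DNA methyltransferase gene Dnmt3a (2), the Wnt effector Lef1 (2), Dnmt3l (1), Utf1 (1) and Grhl2 (1). The listed genes Otx2, Fgf5, Pou3f1, Dnmt3b, Sox3, Zic2, Zic5 and Sall2 had no NACL-only enhancer. The Dnmt3l region (chr10:78045497-78057933), 12437 bp over the gene of this cofactor of DNA methylation, had H3K27ac at percentiles 97.4 and 99.7 in NACL and 78.4 and 96.0 in 2iLIF. Its H3K4me1 stood at 72.8 and 67.0 in NACL and 76.5 in 2iLIF B12, and 2iLIF B9 had no peak. SOX2 was at this region in all 10 libraries, at percentiles 28.8 and 62.2 in 2iLIF, 90.4 and 94.7 in NACL, 94.3, 96.5 and 91.2 in SOX2+ and 92.2, 94.5 and 41.3 in DP cells. Dnmt3a, Dnmt3l, Lef1 and Utf1 had no 2iLIF-only enhancer, while Sox4 had 6, Foxd3 5, Grhl2 1 and Otx2 1. Of the 16 genes of naive pluripotency, 1 had a NACL-only enhancer, Tbx3 with 2 regions, 12 had 52 2iLIF-only enhancers between them, and 14 had 57 shared ones.

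The other lists had few regions. Nodal and Activin genes had 3 of 16 with 1 region each, Acvr1b, Smad2 and Smad3, where 7 had a 2iLIF-only and 10 a shared enhancer. Wnt genes had 3 of 16, namely Lef1, Axin2 and Lgr5, with 4 regions, where 10 had a 2iLIF-only and 8 a shared enhancer. Among 9 primitive streak genes Eomes had 3 regions and Lhx1 had 1, while 2 genes had a 2iLIF-only and 3 a shared enhancer. The Eomes region 87.3 kb from the start site had SOX2 in both NACL libraries (69.5 and 49.9) and no 2iLIF library. BMP and Id genes had 2 of 12 (Id4, Smad1). The LIF, primitive endoderm, neural and adhesion lists had 1 gene each: Gbx2 of 10, Dab2 of 16, Sox1 of 12 and Cald1 of 20. A 2iLIF-only enhancer was nearest to 7 BMP and Id, 4 LIF, 4 primitive endoderm, 2 neural and 6 adhesion genes. For shared enhancers the numbers of genes were 4, 4, 5, 2 and 5 in the same order. The Sox1 region 82.9 kb from the start site had SOX2 at percentiles 22 and 45.9 in NACL, 59.3 and 73.4 in SOX2+ A and A1, and no peak in 2iLIF or DP. These counts name the nearest gene and do not show that it is controlled by the region.

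The 10 strongest of the 32 regions without any 2iLIF or nEnd histone peak, by mean H3K27ac percentile in NACL, were nearest to Smap2 (81.8), Enpep (74.0), Nmnat3 (68.4), Hvcn1 (64.2), Fam234b (62.6), Fam189b (61.7), Tagap (59.4), Srprb (58.4), Rasl11a (58.1) and Myrf (57.4). None of these genes was on the lists above. The Smap2 region (chr4:121019668-121023756), the Nmnat3 region and this Myrf region, 0.332 kb from the start site, had SOX2 in both NACL libraries. Over all NACL-only enhancers 16.7% did, and over all NACL enhancers 29.4%, so these regions do not stand out by it. For Nmnat3 the percentiles were 29.3 and 41.9, with no SOX2 peak in 2iLIF. For Myrf the percentiles were 84.4 and 42.7, with a weak peak in 2iLIF B9 (2.43).

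SOX2 was the readout that the choice of regions did not use. A SOX2 peak was found at 28.1% of NACL-only enhancers in NACL B9 (95% Clopper-Pearson interval 26.2 to 30.1) and 17.8% in NACL B12 (16.2 to 19.4), against 9.67% in 2iLIF B9 (8.45 to 11) and 5.55% in 2iLIF B12 (4.62 to 6.60). In SOX2+ cells the shares were 16.4%, 18.5% and 9.62% in experiments A, A1 and B, and in DP cells 2.73%, 3.28% and 0.694%. The lowest NACL value was above the highest 2iLIF value, and the lowest SOX2+ value was about level with 2iLIF B9. Over all NACL enhancers the shares were 45.8% and 30.6% in NACL, 25.8% and 18.2% in 2iLIF and 28.9%, 31.8% and 20.1% in SOX2+ cells, so NACL was above 2iLIF there too. The lists differed in length and held 29623 and 17111 peaks in NACL, 13177 and 8203 in 2iLIF, 10513 to 20609 in SOX2+ and 1378 to 5320 in DP cells. Intervals cover counting error over regions only, since read depth is unknown.

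Relative to the length of the list, the NACL and SOX2+ libraries had the most SOX2 at NACL-only enhancers. Of the SOX2 peaks of a library, 2.25% (B9) and 2.40% (B12) lay at NACL-only enhancers in NACL, and 1.65% and 1.51% did in 2iLIF. Among KOSR libraries the SOX2+ values were 2.26%, 2.15% and 2.06%, while the DP values were 1.26%, 1.39% and 1.09%. The means were 2.32% ± 0.105 (SD, n = 2) in NACL, 1.58% ± 0.0956 (SD, n = 2) in 2iLIF, 2.16% ± 0.0979 (SD, n = 3) in SOX2+ and 1.24% ± 0.151 (SD, n = 3) in DP cells. All NACL and SOX2+ libraries were above all 2iLIF and DP libraries, and NACL and SOX2+ overlapped each other.

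The differences in this share were 0.743 percentage points for NACL over 2iLIF (exact permutation test over libraries, two-sided, p = 0.333), 0.578 for SOX2+ over 2iLIF (exact p = 0.2) and 0.913 for SOX2+ over DP (exact p = 0.1). Each p is the smallest its number of libraries allows, so none of these designs could reach 0.05. Without the 2iLIF B9 histone libraries these 3 differences were 0.334, 0.165 and 0.304, without those of NACL B9 they were 1.12, 1.03 and 1.72, and without those of NACL B12 1.08, 0.406 and 1.44. For NACL against all 8 other SOX2 libraries the difference was 0.651 (exact permutation p = 0.0889, where the smallest possible is 0.0444). After Benjamini-Hochberg adjustment over the 10 tests made here, the exact permutation p-values were 0.286 or 0.333 and none passed.

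The contrast with 2iLIF-only enhancers pointed the same way. In 2iLIF B9, SOX2 was at 18.5% of 2iLIF-only and 9.67% of NACL-only enhancers, while in NACL B9 it was at 29.5% and 28.1%. The SOX2+ library of experiment B had fewer peaks than 2iLIF B9, yet nearly the same share of NACL-only enhancers (9.62% against 9.67%) and a lower one of 2iLIF-only enhancers (10.7% against 18.5%). On a log2 scale the ratio of the NACL-only to the 2iLIF-only share was -0.93 and -1.12 in 2iLIF and -0.07 and 0.03 in NACL. It was 0.05, 0.16 and -0.16 for the SOX2+ libraries, while the DP libraries had -0.82, -0.67 and -1.30. The difference was 1.01 between NACL and 2iLIF (exact permutation p = 0.333), 1.04 between SOX2+ and 2iLIF (exact permutation p = 0.2) and 0.95 between SOX2+ and DP cells (exact permutation p = 0.1), with adjusted values of 0.333, 0.286 and 0.286. For NACL against all other SOX2 libraries it was 0.58 (exact permutation p = 0.311, adjusted 0.333). Over the alternatives run, NACL minus 2iLIF ranged from 0.763 to 1.35 and SOX2+ minus 2iLIF from 0.768 to 1.17. SOX2+ minus DP ranged from 0.575, at equal peak numbers, to 1.44 in the relaxed reading. NACL minus all others ranged from 0.440 to 1.01 in the same 2 settings and was 0.886 without the 2iLIF B9 histone libraries. Set against shared enhancers, the log2 ratios were -1.61 and -1.90 in 2iLIF, -0.84 and -0.91 in NACL, -0.88, -0.79 and -1.12 in SOX2+ and -1.75, -1.57 and -2.27 in DP cells. The share of NACL-only enhancers with SOX2 was thus below that of shared ones in all 10 libraries. Shared enhancers were also wider (median 4327 bp against 2644 bp), and the part of width was not tested.

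**Figure D4:**
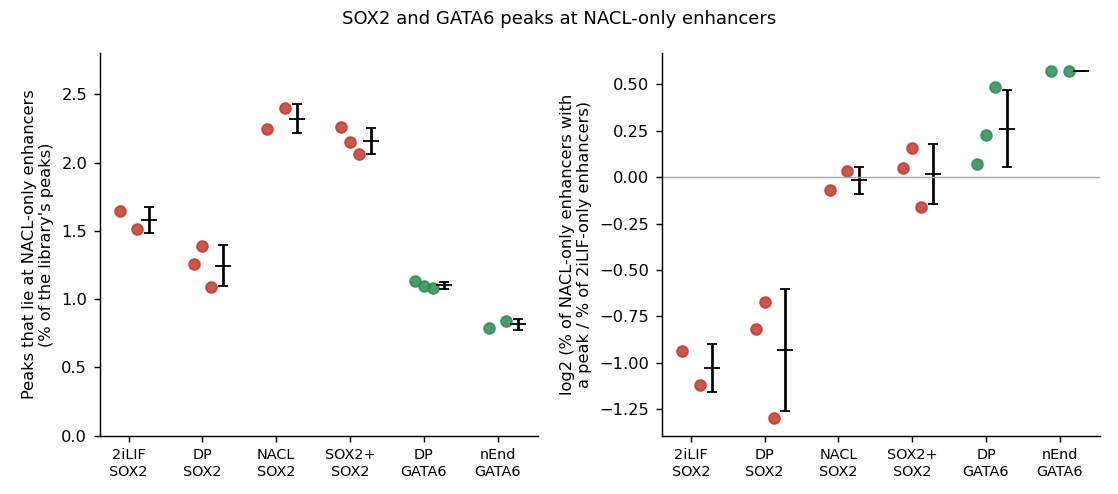
Left, percentage of each library's SOX2 (red) or GATA6 (green) peaks that lie at NACL-only enhancers. Right, log2 ratio of the percentage of NACL-only to that of 2iLIF-only enhancers with a peak. Points are libraries and black marks give mean and SD. For SOX2, the NACL and SOX2+ libraries lie between 2.06% and 2.40% on the left and near 0 on the right, above all 2iLIF and DP libraries.

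Counted region by region, 362 NACL-only enhancers (16.7%) had SOX2 in both NACL libraries, where 29.4% of all NACL enhancers did, and 114 (5.27%) in both 2iLIF libraries, where 17.5% of all NACL enhancers did. In at least 2 of 3 SOX2+ libraries 308 (14.2%) had SOX2 against 26.5% of all NACL enhancers, and in at least 2 of 3 DP libraries 40 (1.85%) against 8.58%. SOX2 in both NACL and no 2iLIF library was found at 182 (8.42%, interval 7.28 to 9.67), near the 7.78% of all NACL enhancers and above the 3.49% (3.17 to 3.82) of 2iLIF-only enhancers. The reverse, SOX2 in both 2iLIF and no NACL library, was found at 0 of 2162, which allows a share of up to 0.139% (3 counts of the total), against 0.128% of all NACL enhancers. Of the 362 regions with SOX2 in both NACL libraries, 225 (62.2%) also had it in at least 2 SOX2+ libraries and 33 (9.12%) in at least 2 DP libraries. Of the 308 regions of SOX2+ cells, those 225 made up 73.1%.

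Marks in KOSR cells were not used by the rule either. H3K4me1 was present at 80.7% and 85.7% of NACL-only enhancers in SOX2+ A and B and at 87.4% in DP A, against 53.9%, 61.5% and 72.5% of 2iLIF-only and 88.4%, 92.1% and 93.8% of shared enhancers. All NACL enhancers had H3K4me1 at 88.1%, 91.8% and 94% in these libraries, above the NACL-only share in each. H3K27ac was present at 15.1% and 15.4% of NACL-only enhancers in SOX2+ A and B and at 38.0% in DP A. Of 2iLIF-only enhancers 8.12%, 8.78% and 31.5% had it, of shared ones 28.6%, 28.6% and 57%, and of all NACL enhancers 32.6%, 32.4% and 61.5%. In each KOSR library NACL-only enhancers lay between the 2iLIF-only and the shared ones. In a culture, fewer cells with a mark and less of it per cell cannot be told apart, and the DP histone values rest on 1 library each.

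H3K4me1 in both SOX2+ libraries was found at 1682 regions (77.8%, against 86.4% of all NACL enhancers) and H3K27ac in both at 231 (10.7%, against 26.1%). H3K4me1 in both without H3K27ac in either was the state of 1287 (59.5%), against 48.4% of all NACL enhancers, 39.5% of 2iLIF-only and 52.4% of shared enhancers. A full SOX2+ enhancer overlapped 194 (8.97%), against 24% of all NACL enhancers, and 125 of these 194 (64.4%) were within 1 kb of a start site, compared with 26.3% of the other NACL-only enhancers. The 8.97% became 2.26% in the relaxed reading and 4.54% among regions at least 1 kb from a start site. It was 3.31% without the histone libraries of 2iLIF B9, 5.76% without those of NACL B12 and 5.25% without the second replicate of nEnd. Both DP marks were found at 789 (36.5%), against 60.8% of all NACL enhancers.

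The state of H3K27ac in 2iLIF divided the NACL-only enhancers further. Where both 2iLIF libraries had H3K27ac (1317 regions), the SOX2+ H3K27ac libraries had it at 22.9% and 24.3%. Where 1 had it (632 regions) the shares were 3.01% and 2.06%, and where neither had it (213 regions) 2.82% and 0.469%. In DP cells H3K27ac was at 51.3%, 18.8% and 13.1%. H3K4me1 in SOX2+ cells did not follow this order, with 80.9% and 86.3%, 79.0% and 84.0%, and 84.0% and 87.3% in the 3 classes. Width and position moved with these classes. Median widths were 3439, 2052 and 1776 bp, and 36.8%, 18.5% and 19.7% lay within 1 kb of a start site. Among regions at least 1 kb away, SOX2+ H3K27ac was at 13.4% and 15.2%, 2.91% and 1.75%, and 2.34% and 0.585%. The part of width was not tested.

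SOX2 was lowest in the NACL and 2iLIF libraries where neither 2iLIF library had H3K27ac. With H3K27ac in both 2iLIF libraries, SOX2 was at 30.2% and 20.2% of regions in NACL B9 and B12 and at 12.1% and 7.14% in 2iLIF. With H3K27ac in 1 library the values were 25.6% and 14.2%, and 6.65% and 3.32%. With H3K27ac in neither they were 22.5% and 13.1%, and 3.76% and 2.35%. In SOX2+ A, A1 and B the shares were 19.3%, 22.5% and 11.5% with H3K27ac in both 2iLIF libraries, 12.5%, 13% and 6.65% with it in 1 and 9.86%, 10.8% and 6.57% with it in neither. The last 2 classes were nearly level in SOX2+ B, and among regions at least 1 kb from a start site their order turned there (5.83% and 6.43%). In the 532 regions outside any relaxed 2iLIF region, SOX2 was at 21.2% and 13% in NACL, 6.39% and 3.2% in 2iLIF, and 10.7%, 12.4% and 6.2% in SOX2+ cells. These classes come from 2iLIF H3K27ac lists and were compared without a test.

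**Figure D5:**
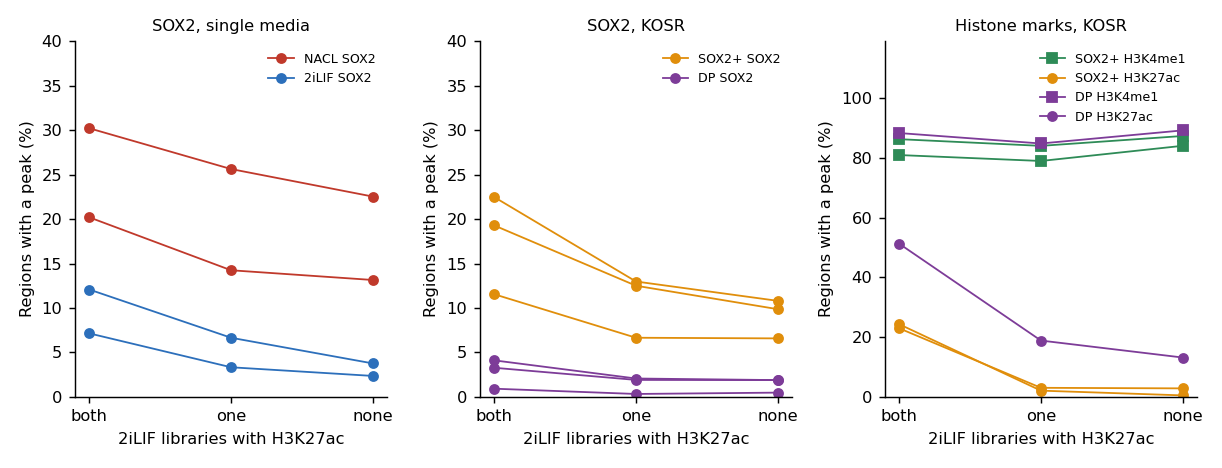
Percentage of NACL-only enhancers with a peak, by the number of 2iLIF H3K27ac libraries with a peak there (both, 1 or none), 1 line per library. SOX2 in NACL is at 30.2% and 20.2% where both 2iLIF libraries have H3K27ac and at 22.5% and 13.1% where neither has it, and in KOSR cells H3K4me1 is at 79.0% or more while H3K27ac is highest where both 2iLIF libraries have it.

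GATA6 was rare at NACL-only enhancers. It was found at 7.86% and 10.5% in nEnd B9 and B12 and at 3.79%, 1.80% and 0.648% in DP A, A1 and B. In both nEnd libraries it was at 137 (6.34%), against 20.1% of all NACL enhancers, which include those shared with nEnd. In at least 2 DP libraries it was at 37 (1.71%), against 5.7%. The 2iLIF-only and shared enhancers, which like the NACL-only ones leave out nEnd enhancers, had 4.05% and 7.66% in both nEnd libraries. In at least 2 DP libraries they had 1.45% and 3.44%, so NACL-only enhancers lay between these 2 classes in both counts. Of the 37, 21 were among the 137. As a share of a library's GATA6 peaks, NACL-only enhancers took 0.789% and 0.843% in nEnd and 1.13%, 1.10% and 1.08% in DP cells, a difference of 0.287 percentage points with all 3 DP libraries above both nEnd libraries (exact permutation p = 0.2, the smallest possible, adjusted 0.286). The log2 ratio to 2iLIF-only enhancers went the other way, with 0.57 in both nEnd libraries and 0.07, 0.22 and 0.48 in DP cells (difference -0.31, exact permutation p = 0.2, adjusted 0.286). This second difference turned to 0.78 when all GATA6 libraries were cut to the peak number of the smallest, which was 1391, and the difference in share was then 0.887 percentage points. Without the 2iLIF B9 histone libraries the second difference was -0.05, and without those of NACL B12 it was -0.565.

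The 500 bp around the strongest H3K27ac maximum were richer in G and C in NACL-only enhancers, with a median of 48.2% against 44.8% in 2iLIF-only and 46.6% in shared enhancers, and held a mean of 9.13, 5.69 and 6.93 CpG. In NACL-only enhancers at least 1 kb from a start site the median was 47.6% and the mean 6.50 CpG. Of the 15 strings, the AP-1 string TGACTCA was in 12.9% (interval 11.5 to 14.3) of NACL-only and 10.5% (9.98 to 11.1) of 2iLIF-only windows, and in 12.1% of shared ones. The TCF/LEF string ATCAAAG was in 7.86% (6.76 to 9.08) and 10.6% (10.1 to 11.2), the SOX string CATTGT in 22.8% (21.1 to 24.7) and 27.8% (27.1 to 28.6), and the GATA string AGATAA in 21.3% (19.6 to 23.1) and 26.2% (25.4 to 27). The last 3 are rich in A and T, and the part of base composition was not tested. The intervals of the octamer ATGCAAAT (4.12% and 4.61%), the ESRRB string TCAAGGTCA (2.64% and 3.14%), the KLF string CCACACCC (7.26% and 6.54%), the NANOG string GCCATTA (4.26% and 4.64%), the CRE string TGACGTCA (0.648% and 0.341%), the FOXH1 string AATCCACA (2.17% and 2.23%), the ETS string ACCGGAAG (1.11% and 0.812%), the OTX string TAATCC (18% and 19.6%), the TEAD string ACATTCCA (2.73% and 2.71%), the STAT string TTCCNGGAA (1.85% and 2.15%) and the SMAD string CAGACAG (16.1% and 15.1%) overlapped between NACL-only and 2iLIF-only windows. A match is a run of letters and not evidence of binding.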

How the data were processed

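Per the methods and the submitters' processing notes, the authors used cutadapt 1.18 for trimming and Bowtie2 2.3.4.1 for alignment to GRCm38 (mm10), then SAMtools 1.9, Picard 2.9.1, bedtools 2.27.1 and deepTools 3.2.0. SEACR, with IgG as control, found the peaks of each library. In the deposited lists every peak has a total and a maximum signal, which are coverage values on a scale particular to its library. Signal therefore served for ranks inside 1 library alone, and a percentile is a peak's rank by total signal. The lists' names give relaxed mode for histone marks and stringent mode for factors, while the methods give the reverse. Read depth is unknown, and 1378 to 401853 peaks per library limit what each can show. Of 35 lists 33 were assigned to a group. The other 2, whose title and source name give different sorted populations, entered no comparison, and the 18 IgG samples were not used here. The NACL B12 SOX2 library has a source name that names IgG and no medium, so its group came from its title. The first GATA6 library (DP, experiment A) carries the suffix sub02, which no source used here explains.

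Overlap meant 1 bp or more. GENCODE M21 gave the start sites and genes, RefSeq GRCm38 gave the sequence, and no peak passed a chromosome end. Group means of libraries were compared with exact permutation tests (two-sided, Benjamini-Hochberg over 10 tests, threshold 0.05) in Python 3.11.15 with scipy 1.17.1. The enhancer rule was checked on simulated peak lists, and the permutation test on simulated numbers. The members, gene lists and motif strings were chosen with earlier results of these data known. Named were the 12 genes nearest to most NACL-only enhancers, the genes of each list with most regions, the 10 strongest regions without any 2iLIF or nEnd histone peak, and the 10 with SOX2 in both NACL and no 2iLIF library by mean SOX2 percentile, of which 4 of the first 5 are printed and the other is not reported here. The Spry4 values by library, the X chromosome, chromosome 14, H3K27ac of nEnd and the division by H3K27ac in 2iLIF were chosen after their values were seen. Alternatives were the reading of the rule, overlap, peak strength, position, peak number, libraries left out, and clone or experiment as a block. Each SOX2 or GATA6 library was left out alone. In 2iLIF, NACL and nEnd the H3K27ac and H3K4me1 libraries of a replicate were left out together. No SOX2+ or DP histone library was left out. Same-numbered SOX2 libraries of SOX2+ and DP cells share an experiment label. Their deviations correlated by 0.0207, 0.0151 and 0.0317, against -0.0300 to 0.0143 between libraries of different experiments. The main test did not treat them as pairs, while the alternative with experiment as a block did. The clones B9 and B12 pair 2iLIF with NACL by cell line.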

Additional observations from a re-analysis of the deposited data

Results flagged for a closer look

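The 2 KOSR libraries of experiment B whose title and source name give different sorted populations were in no comparison. Both had peaks at NACL-only enhancers. The H3K4me1 library had a peak at 83.6% of the regions and the H3K27ac library at 15.9%. For comparison, the SOX2+ libraries had 80.7% and 85.7% for H3K4me1 and 15.1% and 15.4% for H3K27ac, and the DP libraries 87.4% and 38.0%. The group of the 2 libraries was not inferred from these values.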

How the results depend on the processing

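The number of NACL-only enhancers moved with the reading of the rule and with the libraries used. It was 442 when a 2iLIF or nEnd enhancer could take each mark from either library, 32 when no peak of either mark was allowed there, and 1240 with the stronger 50% of each histone library's peaks. The share at least 1 kb from a start site was then 77.1%, 81.2% and 60.6%. The share that overlapped a SOX2+ enhancer was 2.26% and 0% in the first 2 readings and 4.54% among regions at least 1 kb from a start site. With both histone libraries of a replicate left out in turn, the number ranged from 876 (2iLIF B9) to 6280 (NACL B12). The share away from start sites then ranged from 69.9% to 77.7% and the share at SOX2+ enhancers from 3.31% to 9.48%. The cause was not tested.

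The differences in SOX2 kept their direction in all alternatives run, except that SOX2+ minus DP in the share of peaks was -0.000775 with the 32 regions, where few regions are counted. Their size moved with the histone libraries left out. Without those of 2iLIF B9 the difference in the share of peaks was 0.334 for NACL minus 2iLIF, 0.165 for SOX2+ minus 2iLIF, 0.304 for SOX2+ minus DP and 0.325 for NACL minus all others. Without those of NACL B9 the values were 1.12, 1.03, 1.72 and 0.99, and without those of NACL B12 1.08, 0.406, 1.44 and 1.31, where more regions are counted. The GATA6 log2 ratio of DP minus nEnd turned to 0.78 at equal peak numbers. It was -0.04 with either library, -0.05 without the 2iLIF B9 histone libraries and -0.15 without those of nEnd replicate 2. It grew to -0.565 without the NACL B12 histone libraries and to -0.580 within 500 bp of the H3K27ac maximum. The GATA6 difference in share was 0.887 at equal peak numbers and 0.155 to 0.589 with libraries left out. The cause was not tested. No adjusted p passed 0.05 in any alternative (exact permutation tests, lowest 0.222). With clone as a block, NACL minus 2iLIF had the same differences (0.743 and 1.01), with an exact sign-flip p = 0.5, and with experiment as a block SOX2+ minus DP (0.913 and 0.95) had an exact sign-flip p = 0.25, both the smallest possible. With the 32 regions no log2 ratio could be formed, since some libraries had no peak there. Peak number, not known read depth, limits every share.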

Other observations

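Naive endoderm showed H3K27ac at 20.5% and 21.5% of NACL-only enhancers, in B9 and B12, although the regions were chosen to overlap no nEnd enhancer. The same libraries had it at 8.90% and 10.4% of 2iLIF-only and 16.5% and 19.8% of shared enhancers, which also exclude nEnd enhancers. Since nEnd H3K27ac entered the choice of all 3 classes, these values carry no test.

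Beyond the 5 of highest rank, the strongest SOX2 regions of NACL without SOX2 in 2iLIF were nearest to Xkr4, to the chromatin remodeller gene Chd7, to the dendritic cell surface protein gene Cd83, to the postsynaptic scaffold gene Shank2 and to the potassium channel gene Kcnj2, with mean NACL SOX2 percentiles of 82.5, 81.5, 80.7, 80.0 and 79.6. In the relaxed reading for 2iLIF, 6 of the 18 ERK response regions and 3 of the 19 formative regions lay outside any 2iLIF region, where 24.6% of all NACL-only enhancers did. Chromosome 14 held 1.76% of NACL-only, 4.08% of 2iLIF-only and 2.14% of shared enhancers.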
